A study of Mus musculus with 2 samples.

Results

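Noct encodes nocturnin, a member of the exonuclease, endonuclease and phosphatase family that also holds the CCR4-type deadenylases. Nocturnin was first described as a rhythmic mRNA of the retina and studied for years as a deadenylase. It is now known to remove the 2′-phosphate of NADP(H), yielding NAD(H), and in mouse liver its mRNA follows a strong daily rhythm. It is also known as an early gene that serum, lipid and phorbol ester can induce.

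Noct is 1 of the 31053 genes in the matrices and was looked up by its symbol. At least 1 Noct UMI was found in 1728 of the 32372 cells kept. The gene was chosen with its difference between the IL-27 and PBS libraries known, so its levels and the difference between the libraries are given as a description, with no test. TxA23 is a T cell receptor transgenic line whose receptor recognises a parietal cell antigen, and these mice develop autoimmune gastritis. All mice in both groups had this genotype. The IL-27 group was 3 females given 800 ng of recombinant, covalently linked p28-EBI3 (rIL27) in 200 uL (4 ug/mL), and the PBS group was 1 female and 1 male whose pumps held PBS alone. Osmotic pumps were placed under the skin at 3 months of age and left in place for 4 weeks. Live CD45+ cells flushed from the gastric mucosa were profiled with 10x Genomics 5′ chemistry, in which each unique molecular identifier (UMI) stands for 1 captured transcript. Each group was deposited as 1 pooled library, so no comparison between the groups has a replicate.

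After cells with under 200 genes or over 10% mitochondrial UMIs were left out, 20579 IL-27 and 11793 PBS cells were kept; the median cell held 3079 and 2958 UMIs. The suffix of the barcodes marked 3 wells of IL-27 and 2 of PBS. Nothing in the labels states that a well is a mouse, so wells are used as parts of a library. The PBS wells stood apart from each other: of 4 Y-linked genes, 3074 UMIs were counted in PBS well 2 and none in PBS well 1 or the IL-27 wells. Wells shared 43 to 69 cell barcodes with each other, at most 1.09% of a well. Cells were sorted into 15 subsets by raw UMIs of marker genes, which placed 19344 IL-27 and 11254 PBS cells. Another 9 and 19 cells passed more than 1 gate and were left out. Markers not used for gating were higher in their own subset than in the other gated cells for every marker of 13 subsets. In gamma-delta T cells this held for 4 of 5 such markers, and in NK cells for the 5 that were detected of 6.

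Noct (ENSMUSG00000023087) lies on chromosome 3 at 51224447 to 51251644, plus strand, in GRCm38 (mm10). GENCODE M21 lists 4 transcripts of it, with 2 to 4 exons. The 5′ assay reads transcripts from their start and the matrices sum all transcripts, so these cannot be told apart. The 250 bases before the RefSeq start (GRCm38.p6, chr3:51224197-51224446, plus strand) are shown because clock and stimulation genes are set beside Noct below. Capitals mark the CCAAT box letters CCAAT, or ATTGG where the match is on the minus strand.

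Noct promoter: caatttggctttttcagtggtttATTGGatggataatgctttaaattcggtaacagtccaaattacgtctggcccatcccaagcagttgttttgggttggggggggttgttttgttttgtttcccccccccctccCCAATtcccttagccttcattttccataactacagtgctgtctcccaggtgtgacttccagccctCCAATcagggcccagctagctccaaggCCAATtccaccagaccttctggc

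Searched on both strands, the window held 4 matches to CCAAT, letters found at least once in 33.8% of 32851 promoter windows of the same length. It held no match to the E-box CACGTG, which 6.02% of windows held, or to the D-box TTATGTAA, which 0.819% held. The full cAMP response element TGACGTCA and its core TGACG, which lies within it, also had no match, against 1.55% and 17.8% of windows. The GC box GGGCGG and the TATA box TATAAA were likewise not found, against 32.7% and 12.4%. These are letters in 1 window and say nothing of the factors that read them.

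Noct was sparse in both libraries and denser in the PBS library. The IL-27 library held 720 Noct UMIs in 654 cells, which is 9.04 CPM (the gene's UMIs scaled to a fixed total over all genes; exact Poisson 95% interval 8.39 to 9.72) and 3.18% of cells. In the PBS library there were 1438 UMIs in 1074 cells, 33.5 CPM (31.8 to 35.3) and 9.11% of cells. IL-27 wells 1, 2 and 3 were at 8.32, 7.98 and 10.6 CPM, and PBS wells 1 and 2 at 46.2 and 19.7 CPM. No IL-27 well reached either PBS well, and the PBS wells were farther apart than the IL-27 wells were. Among Noct-positive cells, those holding more than 1 Noct UMI were 7.65% with IL-27 and 23.6% with PBS, with at most 7 and 9 in a cell. All intervals cover counting error only, not differences between animals.

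Conventional CD4, regulatory, CD8 and other T cells carried more Noct than B cells in both libraries. In conventional CD4 T cells (Cd4 detected, no Cd8 or Foxp3 UMI), Noct was at 13.0, 12.5 and 14.8 CPM in the IL-27 wells and at 86.6 and 27.4 CPM in the PBS wells. The IL-27 wells lay within each other's intervals, and PBS well 1 was 3.16 times PBS well 2 (exact conditional interval 1.99 to 5.30). Summed over wells, the PBS level was 5.32 times the IL-27 level (4.22 to 6.73; 647 and 2031 cells). A Noct UMI was found in 24.1% and 9.47% of the cells of PBS wells 1 and 2, and in 4.43%, 5.34% and 5.89% in the IL-27 wells. Median depths in this subset were alike, 3763 UMIs in the IL-27 and 3754 in the PBS library, and with each cell thinned to 1000 UMIs the shares were 1.36% and 6.97%.

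Regulatory T cells, gated on Foxp3, held Noct at 11.3, 12.9 and 23.8 CPM in the IL-27 wells and at 97.0 and 39.6 CPM in the PBS wells. Both PBS wells were above all IL-27 wells, although the interval of PBS well 2 (23.5 to 62.7) overlapped that of IL-27 well 3 (14.7 to 36.4). The PBS level was 4.21 times the IL-27 level (2.78 to 6.45; 251 and 549 cells). The other T cells, those that met no CD4, regulatory, CD8 or gamma-delta gate, had 12, 11 and 18.4 CPM against 61.6 and 35.2 CPM, a ratio of 4.09 (3.36 to 4.97). Gamma-delta T cells, gated on Trdc, were few, with 5 Noct UMIs in 221 cells of the IL-27 and 19 in 110 cells of the PBS library. Their levels were 6.74, 3.84 and 5.18 CPM against 56.9 and 17.0 CPM, and the ratio of 6.16 had an interval of 2.23 to 21.1.

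CD8 T cells were the subset in which the PBS wells came in the reverse order. Noct was at 11.2, 17.4 and 15.8 CPM in the IL-27 wells, at 46.1 CPM in PBS well 1 and at 65.2 CPM in PBS well 2. PBS well 1 was thus 0.708 times PBS well 2 (0.520 to 0.965), while in conventional CD4 T, regulatory T, gamma-delta T, other T, B and NK cells it was 1.75 to 11.8 times as high. The CD8 T cells of these wells also differed in median depth, 5914 and 4147 UMIs, and in activation-linked genes given below, so the ratio compares cells that differ in more than Noct. The PBS level was 3.81 times the IL-27 level (3.03 to 4.81; 584 and 1676 cells).

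B cells had less Noct than conventional CD4, regulatory, CD8 and other T cells, and again more in the PBS library. The IL-27 wells were at 3.95, 3.42 and 6.79 CPM and the PBS wells at 30.3 and 12.9 CPM. The PBS level was 4.28 times the IL-27 level (3.61 to 5.10; 8139 and 11656 cells), and PBS well 1 was 2.35 times PBS well 2 (1.95 to 2.84). Conventional CD4 T cells exceeded B cells of their own well 3.28, 3.67 and 2.18 times in the IL-27 wells and 2.86 and 2.12 times in the PBS wells. For CD8 T cells the ratio to B cells was 1.52 (1.2 to 1.92) in PBS well 1 and 5.05 (3.83 to 6.61) in PBS well 2, so it was not the same across wells. Gamma-delta T cells were not set apart from B cells, with a ratio of 1.07 (0.344 to 2.54) in the IL-27 library. In the PBS library the ratio was 1.54 (0.920 to 2.43), and both intervals include equal levels. B cells with a UMI of Fcer2a, the CD23 receptor of follicular B cells, had 5.26 CPM with IL-27 and 22.0 CPM with PBS, and those without had 4.34 and 19.9 CPM.

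**Figure D1:**
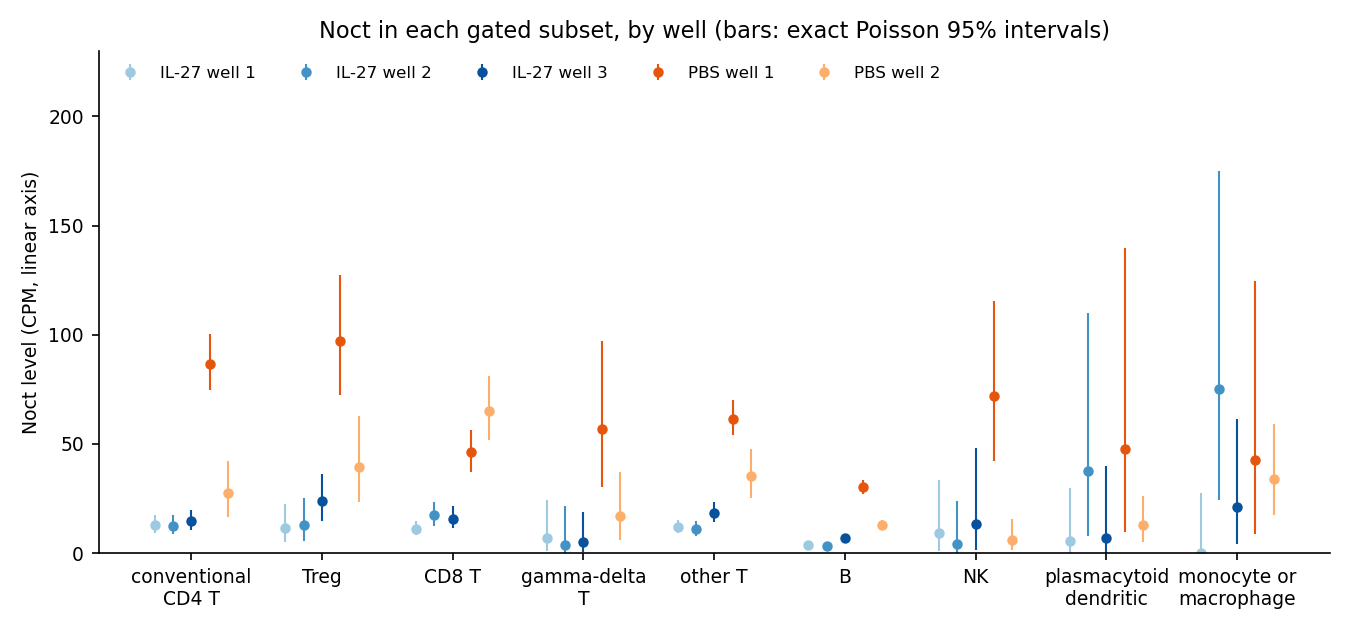
Noct level in CPM (linear vertical axis) in each gated subset with at least 50 cells in both libraries, 1 point per well with its exact Poisson 95% interval. In T and B subsets the 3 IL-27 wells sit below both PBS wells, and PBS well 1 is the higher PBS well except in CD8 T cells (46.1 against 65.2 CPM).

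NK cells split between the PBS wells more than any other subset with at least 50 cells in both. Noct was at 72.2 CPM in PBS well 1 (17 UMIs in 88 cells) and at 6.12 CPM in PBS well 2 (4 UMIs in 190 cells), a ratio of 11.8 (3.85 to 48.2). The IL-27 wells, with 5 UMIs in all, were at 9.25, 4.29 and 13.3 CPM, so PBS well 2 lay among them. Summed over wells the PBS level was 2.83 times the IL-27 level (1.04 to 9.62), and without PBS well 1 it was 0.734 times (0.146 to 3.41).

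Plasmacytoid dendritic cells, the interferon-producing dendritic lineage, showed no separation of the libraries at this depth. They held 5 Noct UMIs in the 72 cells of the IL-27 library (12.3 CPM) and 10 in the 77 of the PBS library (16.4 CPM), a ratio of 1.33 with an interval of 0.414 to 4.96. By well they were at 5.38, 37.6 and 7.15 CPM with IL-27 and 47.8 and 12.8 CPM with PBS. Monocytes or macrophages had the highest IL-27 level of any subset with at least 50 cells there, 23.3 CPM (10.1 to 45.9), and 35.2 CPM (19.7 to 58.1) in the PBS library. Their ratio was 1.51 (0.602 to 4.12), and of their 8 IL-27 UMIs 5 came from IL-27 well 2 and none from well 1. Both intervals include equal levels.

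The remaining subsets were too small to compare. Mast cells were found almost only in PBS well 2, where 54 cells held 5 Noct UMIs (27.9 CPM, 9.07 to 65.2), and the IL-27 library had 5 mast cells with 1 UMI. Neutrophils held 3 UMIs in 32 PBS cells and none in 35 IL-27 cells, which allows a share of up to 8.57% and 59.9 CPM. Such limits are on cells with a captured Noct UMI, not on cells that express the gene. Mature dendritic cells held 2 UMIs in 10 PBS cells and none in 17 IL-27 cells, which allows up to 17.6% of cells. Conventional dendritic cells held 3 UMIs in 14 PBS cells, all in 1 cell, and 1 UMI in 17 IL-27 cells. Type 2 innate lymphoid cells held none in 27 PBS cells, allowing up to 11.1%, and 2 UMIs in 30 IL-27 cells. Plasma cells held 2 UMIs in each library, in 9 PBS and 24 IL-27 cells.

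Ordered by level, the IL-27 library ran from monocytes or macrophages through regulatory T, CD8 T, other T, conventional CD4 T, plasmacytoid dendritic, NK and gamma-delta T cells down to B cells at 4.95 CPM. In the PBS library the order began with conventional CD4 T (71.3 CPM), regulatory T (70.4), other T (55.2) and CD8 T cells (53.5). Monocytes or macrophages, gamma-delta T, mast and NK cells followed, and B (21.2) and plasmacytoid dendritic cells (16.4) came last. Each neighbour in both orders overlapped the next within its interval, so only distant places are set apart, such as B cells below the conventional CD4, regulatory, CD8 and other T cells.

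No subset was taken to be free of Noct, so no clean level for free RNA is given, and its part in the low shares was not tested. The lowest share in a subset with at least 50 cells was 1.09%, in B cells of IL-27 well 1 (median depth 2590 UMIs). In PBS well 2, 2.11% of NK cells (median depth 3075 UMIs) and 3.60% of B cells (3060) held a Noct UMI, against 25.5% of CD8 T cells (4147). The NK share rested on 4 UMIs, and the CD8 T cells were deeper than the others. The ungated cells were at 7.15 CPM in the IL-27 and 41.6 CPM in the PBS library, the same direction as in the lymphocytes. Summed B lineage markers inside the conventional CD4 T gate were at 11 to 16.2 CPM across wells, and T lineage markers inside the B gate at 68.2 to 87.0 CPM. Epithelial, erythroid, and endothelial or stromal markers summed to 8.07 to 35.2, 0.106 to 367 and 73.2 to 84.7 CPM. The erythroid markers were highest in IL-27 well 3, and their part in any result was not tested.

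Seen against each PBS well alone, the difference was smaller with PBS well 2 in most subsets. For conventional CD4 T cells the PBS level was 6.46 times the IL-27 level in PBS well 1 (5.09 to 8.21) and 2.04 times in PBS well 2 (1.2 to 3.30). For B cells the values were 6.12 (5.11 to 7.36) and 2.61 (2.10 to 3.24). Regulatory T cells gave 5.79 and 2.37, and other T cells 4.56 and 2.60. CD8 T cells gave 3.29 (2.49 to 4.31) and 4.64 (3.49 to 6.15). For gamma-delta T cells PBS well 1 gave 10.7 (3.59 to 38.5) and PBS well 2 gave 3.20, with an interval of 0.815 to 13.3 that includes equal levels.

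**Figure D2:**
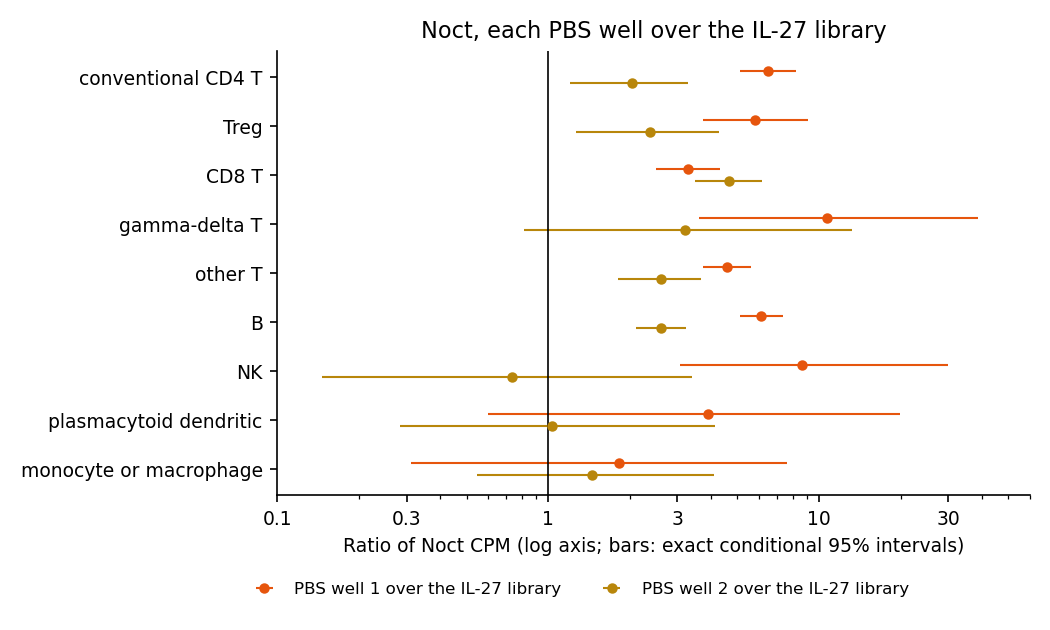
Ratio of the Noct level in PBS well 1 or PBS well 2 to that of the whole IL-27 library (log horizontal axis, exact conditional 95% intervals), by subset; the vertical line marks equal levels. PBS well 1 gives the larger ratio in conventional CD4 T (6.46 against 2.04) and B cells (6.12 against 2.61), and CD8 T cells give the reverse.

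The 2 PBS mice differed in sex, and cells can be called by their own transcripts. A cell was called female with at least 1 Xist UMI and no Y-linked UMI, and male in the reverse case. PBS well 2 held 2162 male-called and 183 female-called cells, and 3106 cells with neither call or both. Its female-called cells had a mean of 2.90 Xist UMIs, against 2.85 in the 4500 so called in PBS well 1, and 3 of their 183 barcodes also occurred in PBS well 1. In that well Noct was at 52.3 CPM (37.7 to 70.6) in female-called and 16.7 CPM (14.2 to 19.5) in male-called cells, a ratio of 3.13 (2.17 to 4.42). Female-called cells in PBS well 1 were at 46.3 CPM (43.2 to 49.6), so the female-called cells of the other well lay near them and its male-called cells below. Whether those 183 cells came from the female mouse, and what part free RNA has in the calls, was not tested.

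The same order appeared within B cells and within other T cells. In B cells of PBS well 2 Noct was at 28.5 CPM in 120 female-called cells and at 10.4 CPM in 1510 male-called cells (ratio 2.73, 1.34 to 5.15). Female-called B cells of PBS well 1 were at 30.7 CPM. Other T cells of PBS well 2 were at 106 CPM in 26 female-called and 24.1 CPM in 91 male-called cells (4.39, 2.0 to 9.99), against 54.8 CPM in PBS well 1. Conventional CD4 T cells rested on 5 UMIs in each class, at 68.0 CPM in 12 female-called and 15.7 CPM in 63 male-called cells (4.32, 0.995 to 18.8), an interval that includes equal levels. CD8 T cells of PBS well 2 were at 72.2 CPM in 9 female-called and 53.5 CPM in 104 male-called cells (1.35, 0.409 to 3.52).

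Against female-called IL-27 cells, male-called PBS cells were 2.06 times as high in B cells (1.49 to 2.81) and 3.91 times in CD8 T cells (2.53 to 5.89). For conventional CD4 T cells the levels were 15.7 against 13.1 CPM, a ratio of 1.2 (0.381 to 2.90), and in other T cells at 24.1 against 14.2 CPM (1.70, 0.858 to 3.05), both intervals including equal levels. The IL-27 group had no male, and the only male-called cells came from 1 well, so sex, well and mouse cannot be told apart. Female-called cells of both libraries gave a B cell log2 ratio of IL-27 over PBS of -2.38, against -1.90 over all B cells.

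**Figure D3:**
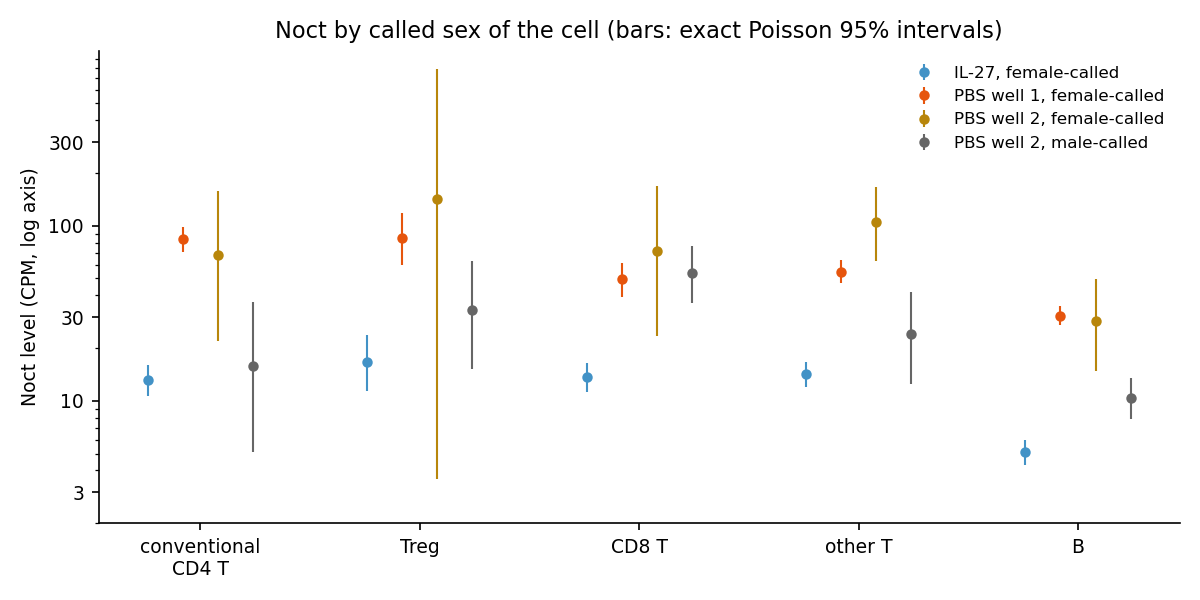
Noct level in CPM (log vertical axis, exact Poisson 95% intervals) by called sex of the cell in 5 lymphocyte subsets. In PBS well 2 the female-called B and other T cells (28.5 and 106 CPM) lie above the male-called ones (10.4 and 24.1 CPM); CD8 T cells of both calls are near PBS well 1.

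Among all genes, Noct lay near the lower end of the IL-27 to PBS ratios in the T, B and NK subsets, which is part of why it was chosen. Ratios are given as log2 of IL-27 over PBS with 1 CPM added to each side, for genes with at least 20 UMIs over both libraries and 10 CPM in the higher one. The value for Noct was -2.33 in conventional CD4 T cells, and 28 of 7954 genes were lower. In B cells it was -1.90 with 10 of 7800 genes lower, and in regulatory T cells -2.01 with 46 of 8344 lower. CD8 T cells had -1.86 with 199 of 7736 genes lower, more than elsewhere among the T and B subsets, and a median over all genes of -0.16. At least 2-fold lower in the IL-27 library were 0.981% of genes in conventional CD4 T, 0.346% in B, 2.58% in regulatory T, 5.51% in CD8 T, 4.29% in gamma-delta T, 1.71% in other T and 3.3% in NK cells. The same share was 3.53% in plasmacytoid dendritic cells and 3.34% in monocytes or macrophages, where Noct was not that much lower. Genes lower than Noct were 38 of 7036 in gamma-delta T, 38 of 7940 in other T and 90 of 7374 in NK cells. In monocytes or macrophages they were 484 of 4676. Noct did not pass the filter in plasmacytoid dendritic cells, where 1193 of 5887 genes were lower.

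In conventional CD4 T, regulatory T, CD8 T, gamma-delta T, other T and B cells all IL-27 wells lay below both PBS wells for Noct. Such a separation by wells held for 10.3%, 12.5%, 16%, 13%, 9.71% and 6.96% of genes in these subsets, and nothing is read from it since the contrast chose the gene. It did not hold for Noct in NK cells, plasmacytoid dendritic cells or monocytes or macrophages, where 9.87%, 9.51% and 9.28% of genes had it. Genes below Noct with the same separation and at least 100 UMIs numbered 8 in conventional CD4 T cells: Fcer1g, Spp1, Tyrobp, Ifitm3, Lyz2, Mcpt1, Ccl6 and Ly6c2. In B cells they were Igkv8-30, Klk1, Siglech, Cox6a2, Lyz2 and Ighv9-1. Both sets were chosen by these values, and several are products of myeloid, mast or plasmacytoid dendritic cells or single antibody segments rather than of the gated lymphocyte.

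**Figure D4:**
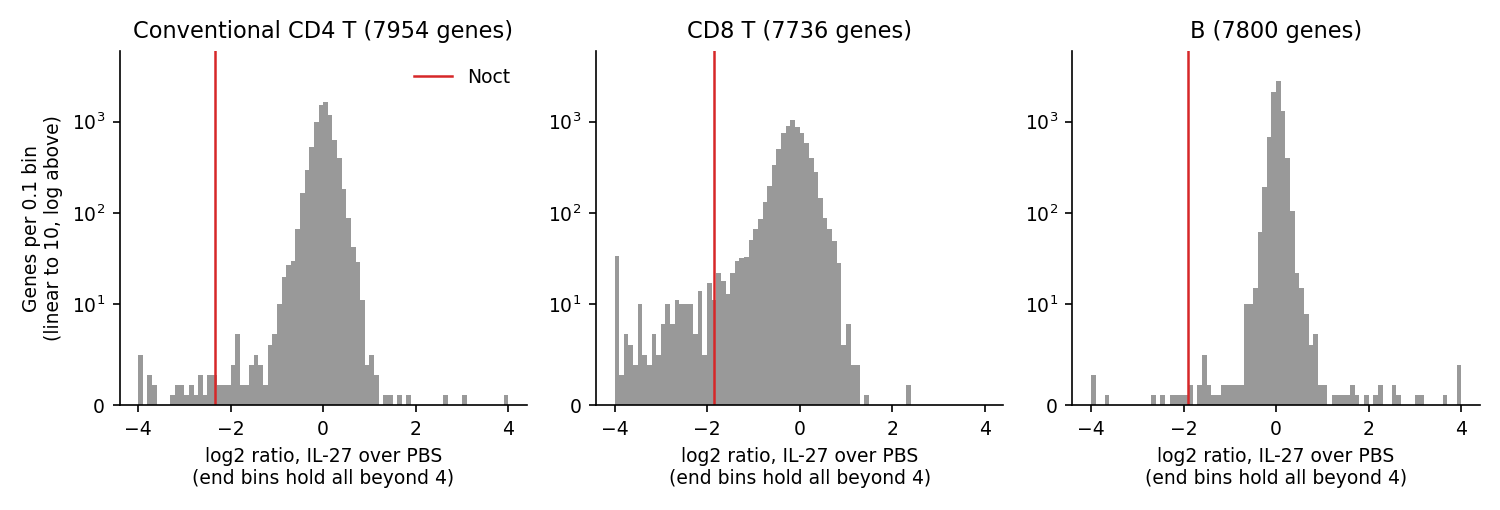
Number of genes per 0.1 of the log2 ratio of IL-27 over PBS (vertical axis linear to 10 and log above; end bins hold all genes beyond 4) in conventional CD4 T, CD8 T and B cells, with Noct as the red line. Noct stands in the thin left tail in conventional CD4 T (-2.33) and B cells (-1.90), while in CD8 T cells (-1.86) 199 genes lie further left.

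The circadian clock genes did not share this pattern in conventional CD4 T or B cells. The clock is a loop in which the activators Clock and Arntl drive their own repressors, Per and Cry, and the nuclear receptors Nr1d1 and Nr1d2. Of 21 clock and output genes, 10 passed the filter in conventional CD4 T cells, and 1 was at least 1.5-fold lower and 0 higher in the IL-27 library, with a median log2 ratio of 0.01. Over all genes 2.16% were lower and 1.42% higher by that much, with a median of 0.01. The activator Arntl was at 26.2, 26.9 and 26.1 CPM with IL-27 and at 20.9 and 35.6 CPM with PBS. Per1 was at 19.4, 23.6 and 25.3 against 21.4 and 17.8 CPM, and Dbp, a clock output factor, at 18.2, 21.7 and 20.4 against 14.3 and 15.1 CPM. The 1 lower gene was Nfil3, the repressor of D-box genes, at 3.81 CPM in PBS well 1 and 41.1 in PBS well 2, so its PBS level came from the well where Noct was lower.

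B cells gave the tightest view of the clock genes, since their counts were the deepest. Of 11 clock genes past the filter, 0 were 1.5-fold lower or higher, against 0.564% and 0.628% of all genes. Clock was at 16.6, 16.3 and 17.2 CPM with IL-27 and at 17.8 and 16.2 CPM with PBS, and Arntl at 15.8, 19.4 and 17.1 against 17.5 and 18.9 CPM. Per1, also a glucocorticoid target, was at 17.5, 21.4 and 14.2 against 16.1 and 17.3 CPM. Bhlhe41, a repressor, varied more, at 8.95, 13.1 and 9.95 CPM with IL-27 and at 6.30 and 19.0 CPM with PBS, and was the higher in the PBS well where Noct was the lower.

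CD8 T cells had more clock genes past 1.5-fold, on a broader background. In CD8 T cells 4 of 9 were lower (Clock, Nfil3, Bhlhe40 and Csnk1e) and 1, Dbp, was higher, against 12.2% and 2.33% of all genes. Bhlhe40, a repressor that activation also induces in T cells, was at 7.92, 15.0 and 9.61 CPM in the IL-27 wells and at 14.5 and 106 CPM in the PBS wells. In regulatory T cells, where 7.96% of all genes were that much lower, the repressors Nr1d1 and Nr1d2 were lower on 14 to 24 UMIs each in a library. Nr1d2 was at 9.91, 11.3 and 7.93 against 20.9 and 28.6 CPM. In NK cells 1 of 10 clock genes passed each way, against 10.2% and 7.95%. Of the 4 clock genes past the filter in monocytes or macrophages 0 were lower or higher, against 10.2% and 9.9%, and of the 3 in plasmacytoid dendritic cells 1 was lower and 0 higher, against 11.1% and 12.6%.

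Like most genes, relatives of nocturnin and the deadenylation machinery were level in conventional CD4 T and B cells. Of 26 genes, among them the sister enzymes Angel1, Angel2, Pde12, Cnot6 and Cnot6l and the other CCR4-NOT subunits, 25 passed the filter in each subset, and 0 were past 1.5-fold in either direction. Their median log2 ratios were 0.03 and 0.05, beside 0.01 and 0.03 over all genes. In conventional CD4 T cells 2.16% of all genes were 1.5-fold lower and 1.42% higher. In B cells 0.564% were lower and 0.628% higher, so the list was near these low shares in both. In CD8 T cells 1 of 25 was lower, Cnot3, and 1 higher, Tob1, against 12.2% and 2.33% of all genes. Genes of NAD(H) and NADP(H) metabolism, the substrates and products of nocturnin, were likewise level in these subsets, with 0 of 11 in conventional CD4 T and 0 of 12 in B cells past 1.5-fold either way, against 2.16% lower and 1.42% higher and 0.564% and 0.628% of all genes. They were not level in gamma-delta T cells, where 6 of 11 were lower and 1 higher, against 12.8% and 10.1%, with a median log2 ratio of -0.63. In NK cells 4 of 9 were lower and 0 higher, against 10.2% and 7.95%. Among CD8 T cells 1 of 10 was lower, Cd38, an NAD-consuming surface enzyme of activated T cells, at 14.1, 11.8 and 9.61 CPM with IL-27 and at 15.0 and 114 CPM with PBS, against 12.2% of all genes lower.

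Genes that stimulation, cAMP or glucocorticoid induces were a mixed group. Of 31 found in the matrices, 27 passed the filter in conventional CD4 T cells, with 3 lower (Nr4a2, Jun and Ier3) and 1 higher (Nr4a3) in the IL-27 library, against 2.16% and 1.42% of all genes. Nr4a2, an orphan nuclear receptor induced by T cell receptor signals, was at 11.7, 3.68 and 7.39 CPM in the IL-27 wells and at 14.3 and 78.0 in the PBS wells. Ier3, an immediate early gene, was at 0.617, 5.89 and 2.11 against 1.90 and 45.2 CPM. The PBS excess of Nr4a2 and Ier3 thus lay mainly in PBS well 2, while that of Noct lay mainly in PBS well 1. Jun was above all IL-27 wells in both PBS wells, at 32.4, 29.5 and 38.7 against 45.2 and 69.8 CPM. Among 23 such genes in B cells 1 was lower, the AP-1 subunit Fosb, at 10.1, 5.61 and 10.1 against 17.0 and 11 CPM, and 0 were higher, beside 0.564% and 0.628% of all genes.

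In CD8 T cells 8 of 27 of these genes were lower and 1, Sgk1, was higher, against 12.2% and 2.33% of all genes. Nr4a2 was at 2.86, 5.27 and 2.31 CPM with IL-27, 6.52 in PBS well 1 and 310.0 CPM in the other. Crem, a cAMP-responsive repressor, was at 8.57, 6.48 and 7.30 against 9.02 and 95.4 CPM. For both, PBS well 1 lay close to the IL-27 wells, where Noct in PBS well 1 stood at 46.1 CPM against 11.2 to 17.4. The lower genes Jund, Ier3, Dusp1, Dusp5 and Tnfaip3 were also highest in PBS well 2. Nr4a3 was not, at 12.3, 12.2 and 6.53 CPM with IL-27 and at 28.6 and 8.74 CPM with PBS. Of the regulatory T cells' 27 genes 6 were lower and 0 higher, against 7.96% and 5.58%, and of the NK cells' 24 genes 11 were lower and 1 higher, against 10.2% and 7.95%. Other T cells had 2 of 26 lower and 1 higher, against 3.35% and 0.516% of all genes, and gamma-delta T cells 6 of 26 each way, against 12.8% and 10.1%.

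The neighbours of Noct on the chromosome were, like most genes, near level between the libraries in the larger subsets. Of the 5 genes on each side none overlaps Noct, and 3 passed the filter in conventional CD4 T and B cells, all on its far side: Elf2, an ETS factor on the minus strand whose annotated 3′ end faces that of Noct, Ndufc1, a respiratory complex I subunit, and Naa15, a subunit of the N-terminal acetyltransferase A. None of these was past 1.5-fold in conventional CD4 T, regulatory T, CD8 T, other T, B or NK cells. Over all genes 0.564% (B) to 12.2% (CD8 T) were that much lower in these subsets. Higher by that much were 0.516% (other T) to 7.95% (NK), so with 3 genes nothing particular to the neighbours is read from this. Elf2 in conventional CD4 T cells was at 101, 95 and 97.5 CPM with IL-27 and at 91.4 and 93.1 CPM with PBS, and in B cells at 93.6, 94.4 and 89.9 against 85.8 and 95 CPM. Ndufc1 in B cells was at 126, 128 and 137 against 133 and 120 CPM. In gamma-delta T cells 1 of the 3, Naa15, was lower in the IL-27 library, against 12.8% of all genes.

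**Figure D5:**
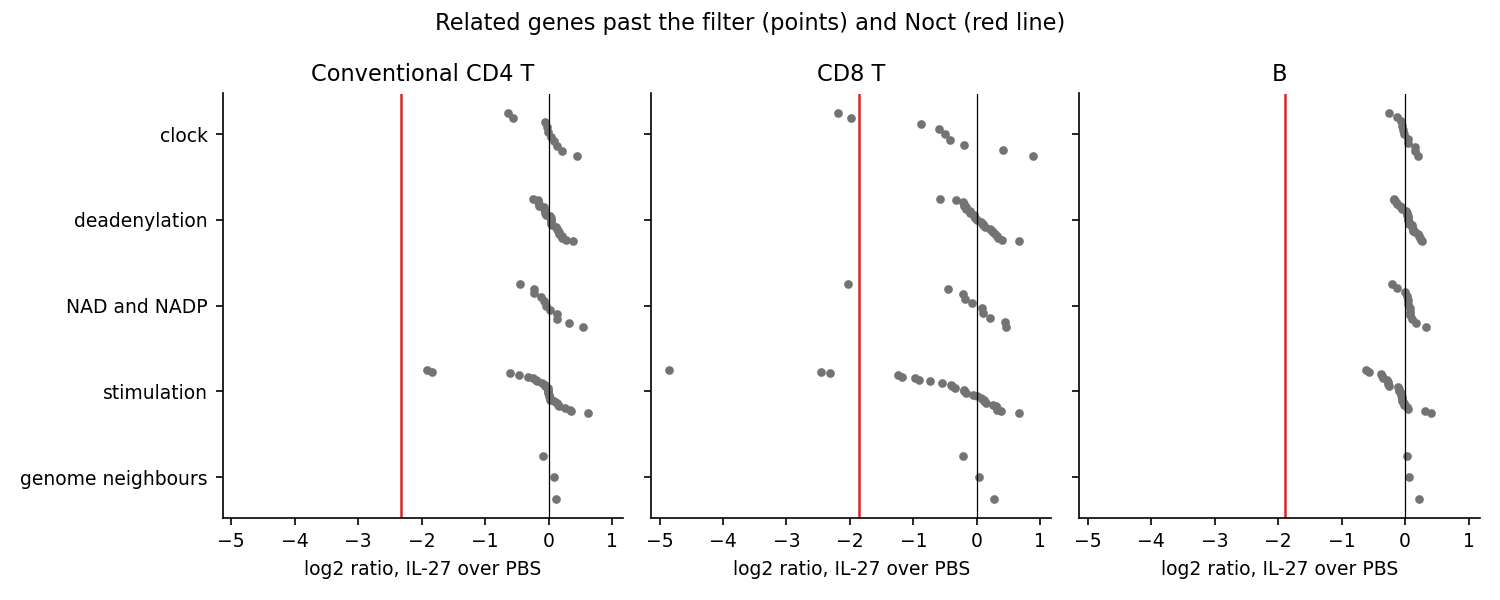
Log2 ratio of IL-27 over PBS of each gene past the filter in 5 gene lists (points, spread vertically within a list for visibility) in conventional CD4 T, CD8 T and B cells, with Noct as the red line. In conventional CD4 T and B cells no point reaches Noct, and the neighbours sit near 0; in CD8 T cells a few clock, NAD and stimulation genes lie at or beyond it.

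Across subsets and wells few genes tracked Noct closely. Over 36 subset-by-well points with at least 50 cells each, and 10672 genes with at least 100 UMIs, the highest Pearson correlations of log2(CPM + 1) were 0.65 for Cmtm4, 0.62 for Atp5k, 0.60 for Ccl6, and 0.58 each for Gnb1 and Ppp2ca. Points of a well share a library and points of a subset share a cell type, so these values are a description. Atp5k, an ATP synthase subunit, ranged only from 193 to 309 CPM over the conventional CD4 T wells, where Noct went from 12.5 to 86.6 CPM. Ccl6, a myeloid chemokine, was at 58.5 CPM in conventional CD4 T cells of PBS well 1 and 4.11 in PBS well 2, but in B cells at 4.42 and 12.9 CPM. With values centred within each subset, an alternative added after the data were seen, over 33 points, Gnai2 (0.81) and Gnb1 (0.79), subunits of heterotrimeric G proteins, came first, followed by Sec61g, Alyref and Atp5k. Gnai2 in B cells was at 544, 455 and 551 CPM in the IL-27 and 682 and 542 CPM in the PBS wells, a far smaller span than that of Noct. Before centring, the highest list members were Jund (0.43, rank 145 of 10672), Nr4a2 (0.41), Tnfaip3 (0.38) and the neighbour Ndufc1 (0.37). Among clock genes Per1 had a correlation of 0.26, Clock of -0.11 and Arntl of -0.03.

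Noct-positive cells did not stand out by a common set of other genes. Cells with and without a Noct UMI were compared within each well that held at least 20 positive cells, after Noct was taken out and each cell was thinned to 1000 UMIs, since positive cells were deeper (in CD4 T cells of IL-27 well 1, a median of 4699 against 3694 UMIs). In conventional CD4 T cells 242 of 3342 genes (7.24%) were found in a larger share of positive cells in all 4 wells used, and 241 (7.21%) in a smaller share. For CD8 T cells, over 5 wells, the shares were 4.4% and 3.6%, and for B cells 3.02% and 3.52%, so higher and lower genes were about as many. Regulatory T cells had 1 well with enough positive cells, where 58.1% of genes were higher and 41.9% lower by any margin.

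The genes with the largest differences are named by rank, and their order was not stable. In conventional CD4 T cells Atp5g2, an ATP synthase subunit, was found in 62.9% of Noct-positive and 51.1% of Noct-negative cells (mean over wells, range of the difference 3.49 to 25.9 points). The chaperone Hspa8 and the small GTPase Cdc42 followed, at 73.4% against 61.9% and 42.9% against 31.9%. Lower were Arhgef1 (37.0% against 49.1%), a guanine nucleotide exchange factor, and Il27ra, the specific chain of the IL-27 receptor (13.4% against 22.8%), whose difference ran from -14.9 to -3.65 points. In CD8 T cells Slc25a3, the mitochondrial phosphate carrier, led at 45.0% against 32.8%, with Sp100 lowest at 15.7% against 24.0%. In B cells Irf8, a transcription factor of B and dendritic cells, was at 35.2% against 30.1%, and Tgfb1 at 25.4% against 35.1%. The ranking was repeated with cells thinned to 2000 UMIs. Of the 10 leading higher genes, 0 in conventional CD4 T, 0 in regulatory T, 2 in CD8 T and 0 in B cells stayed. For the 5 leading lower genes of each subset these counts were 0, 0, 0 and 1. No gene, higher or lower, is thus put forward as a partner of Noct. Of the leading higher genes, Anp32b was named in both conventional CD4 T and regulatory T cells, the latter from 1 well. Hmgb2 was named in CD8 T and B cells, and Slc25a3 in conventional CD4 T and CD8 T cells. Nothing is read from this overlap, which was not tested.

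As with genes at large, few members of the gene lists differed between Noct-positive and Noct-negative cells in every well of conventional CD4 T, CD8 T and B cells. Clock genes found often enough were 2 in conventional CD4 T cells and 1 each in CD8 T and B cells. Of these 0 were higher in every well, beside 7.24%, 4.4% and 3.02% of all genes. Csnk1d, the 1 found in CD8 T cells, was lower in every well, beside 3.6% of all genes. Among stimulation genes 2 of 16 were higher in every well of conventional CD4 T cells (Dusp1 and Myc) and 1 lower (Tsc22d3), beside 7.24% and 7.21% of all genes, and 0 of 15 in CD8 T and 0 of 9 in B cells differed in 1 direction in every well. Deadenylation genes gave 2 of 15 higher in conventional CD4 T cells, Cnot2 and Cnot3, and 0 lower, beside 7.24% and 7.21% of all genes. In CD8 T and in B cells 0 of 13 were higher or lower. The shares of all genes there were 4.4% and 3.6% in CD8 T and 3.02% and 3.52% in B cells. NAD(H) and NADP(H) genes gave 0 of 4 in conventional CD4 T, 0 of 3 in CD8 T and 0 of 4 in B cells, higher or lower. Beside the shares of all genes given above, nothing is read from so few.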

How the data were processed

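Per the file headers, the authors deposited unnormalized UMI counts, covering 20897 IL-27 barcodes (80121995 UMIs) and 12276 PBS barcodes (43501501 UMIs). Cell Ranger 3.0.0 and mm10 are named in the submitters' processing notes, and the matrix headers name software version 3.1.0. Wells were read from barcode suffixes. Cells were gated on raw UMIs of marker genes: T cells needed at least 2 UMIs of the CD3 genes and at most 1 of the B lineage genes used for exclusion, and B cells at least 3 UMIs of B lineage genes and at most 1 CD3 UMI. Some genes of the gates and lists, and results that need them, are not reported here. No doublet caller was run; cells passing more than 1 gate were left out, and an alternative dropped cells above the 95th percentile of UMIs of their well.

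UMIs were summed per subset and library or well, as CPM of the total over all genes, with Poisson (exact), exact binomial (Clopper-Pearson) and exact conditional 95% intervals. Where a count was 0 the limit is 3 counts of the total. With 1 library per group no test was made. Noct, the gates and the gene lists were chosen with earlier results of these data known. Named genes are Noct, the list members, the neighbours, the 10 most raised and 5 most lowered co-detected genes per subset, the 5 most like in pattern and the markers; genes given for lying below Noct in conventional CD4 T and B cells were chosen after their values were seen. The interval and co-detection steps were tested on simulated data. Python 3.11.15, numpy 2.4.6, scipy 1.17.1 and pandas 2.3.3 were used, with GENCODE M21 and RefSeq GRCm38.p6 promoters.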

Additional observations from a re-analysis of the deposited data

How the results depend on the processing

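Values are log2 ratios of IL-27 over PBS for Noct, and the cause of each shift was not tested unless stated. Of 144 alternative values over 9 subsets 139 were negative. Another count is that 20 of the 144 kept the sign but lay outside the interval of the main value, 6 of them in B cells. All reuse the counts of the contrast that chose the gene, so nothing is read from this tally. Leaving out each well in turn gave -2.60 to -0.98 in conventional CD4 T, -2.47 to -1.20 in regulatory T, -2.14 to -1.63 in CD8 T, -3.20 to -1.51 in gamma-delta T, -2.15 to -1.32 in other T, -2.40 to -1.23 in B, -2.97 to 0.39 in NK, -1.87 to 0.14 in plasmacytoid dendritic cells and -1.61 to 0.12 in monocytes or macrophages. The sign turned without PBS well 1 in NK cells (0.39), and without IL-27 well 1 in plasmacytoid dendritic cells (0.14) and monocytes or macrophages (0.12). Male-called PBS against female-called IL-27 cells, chosen after seeing the data, gave -0.25 in conventional CD4 T, -0.94 in regulatory T, -0.72 in other T, -0.91 in B, 0.097 in NK cells and 0.44 in monocytes or macrophages. Female-called cells alone gave -2.38 in B and -3.44 in NK cells. The mean of the wells, also added later, gave -2.01 in conventional CD4 T and -1.74 in other T cells. Thinning to 1000 UMIs gave -2.98 in regulatory T, -6.01 in gamma-delta T, -2.36 in other T, -4.99 in NK and -3.81 in plasmacytoid dendritic cells; in gamma-delta T, NK and plasmacytoid dendritic cells no thinned IL-27 UMI was left, so the pseudocount of 1 CPM sets the value. Without thinning, 30.5% of genes in conventional CD4 T, 16.6% in CD8 T and 23.0% in B cells were higher in Noct-positive cells in every well, and those cells were deeper. Centring within subsets left 2 of the 5 genes most like Noct. No paired analysis was possible because each group is 1 library. Depth limits the myeloid, dendritic, NK and gamma-delta T values.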
